A study of Rattus norvegicus with 28 samples.

Results

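The tibialis anterior muscles of 7 rats that received a vitamin D receptor (VDR) construct in the right leg and an empty vector in the left leg were compared. They were chosen by their labelled VDR status and animal number (416 to 422), which gave 14 of the 28 muscles of the series. The other 14 muscles came from 7 rats whose right leg was given VDR shRNA (VDR-KD) and whose left leg was given scramble shRNA. The rats were male Wistar rats, 8 weeks old on arrival and fasted overnight before collection 10 days after electrotransfer, in which electric pulses drive injected DNA into muscle tissue. The construct encoded mouse VDR, and the shared steps of anaesthesia, injection, pulses and carprofen were given to every leg. VDR-OE muscles all came from the right leg and control muscles all from the left, so the construct and the side of the body cannot be told apart in this comparison. Plasmid enters only part of a muscle, and each library is a whole-muscle average.

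VDR is a nuclear receptor that binds the active form of vitamin D, pairs with the retinoid X receptor and switches genes on or off at vitamin D response elements. Adult skeletal muscle normally holds little of it, and its best known roles lie in gut, kidney and bone. Muscle is a mixed tissue: contractile fibres sit in a matrix of collagens and glycoproteins made mainly by fibroblasts, with resident macrophages between them. The integrated stress response raises amino acid synthesis and transport genes through the factors ATF4 and ATF5 when protein synthesis is slowed.

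Total counts per muscle were 38235929 to 44919933 in control (median 40698118, n = 7) and 39083724 to 46312167 in VDR-OE muscles (median 43644161, n = 7). After a filter on low counts, 14526 genes were tested, of which 1880 had a symbol. Symbols were available here only for genes that ranked high by p-value in the study's own fit of these muscles, so shares of such genes that moved run far above the transcriptome and are given beside it. Contractile, oxidative phosphorylation, endothelial, Schwann cell, neutrophil, red blood cell and tendon genes were not among them, and the label of the tissue was therefore not checked by its fibre genes. A list gene is called measured below only if it had a symbol here and was tested. The other list members may have been counted without a name, and how they moved is not known here. Levels below are read counts scaled to the normalised library size (CPM), n = 7 a side, and each log2 fold change is VDR-OE over control within rats from edgeR's quasi-likelihood test with its standard error (SE) and Benjamini-Hochberg adjusted p.

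Vdr itself, the gene of the construct, separated the legs in 6 of 7 rats. It was counted 95 to 239 times in control muscles. In VDR-OE muscles it was counted 67483, 134784, 8360, 253, 106866, 129303 and 268994 times in rats 416 to 422. Rat 419 therefore stood apart, since its VDR-OE muscle held 253 Vdr reads against 180 in its control muscle, a within-rat log2 ratio of -0.08 after normalisation, and the library carries the VDR-OE label with no measured rise. In CPM the control muscles ran from 1.79 to 6.29 (median 3.69) and the VDR-OE muscles from 5.10 to 5579 (median 2179). The fitted log2 fold change was 8.52 (SE 1.49, adjusted p = 0.0228), and 9.15 without rat 419. The mean within-rat log2 ratio was 7.72 ± 3.80 (SD, n = 7), with p = 0.0312 in an exact two-sided paired permutation test, for which 0.0156 is the smallest p that 7 pairs allow. The adjusted p was 0.0647 without rat 417, 0.0678 without 418, 0.09 without 420 and 0.081 without 421.

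The counts of Nr1i3 and Rab9b followed that of Vdr from muscle to muscle, and Nr1i3 was singled out after its values were seen. Nr1i3 encodes the constitutive androstane receptor, a nuclear receptor of the same subfamily as VDR. It had 0 to 8 reads in control muscles and 1246, 2399, 182, 3, 1846, 2775 and 5090 reads in the VDR-OE muscles of rats 416 to 422. In the 6 muscles with over 1000 Vdr reads, Nr1i3 came to between 1.73% and 2.18% of the Vdr count, although the Vdr count itself spanned 32.2-fold. Nr1i3 reached the low-count level in 6 muscles, all VDR-OE, which was too few for it to be tested, and its counts are given as a description. Rab9b, a small GTPase of endosome traffic, had 3 to 12 reads in control muscles and 71, 75, 23, 9, 95, 88 and 178 in VDR-OE muscles, again lowest in rat 419 and highest in rat 422. Its log2 fold change was 2.92 (SE 0.48, adjusted p = 0.0212). Whether reads of the mouse construct or its vector were counted on these 2 rat genes was not tested.

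**Figure D1:**
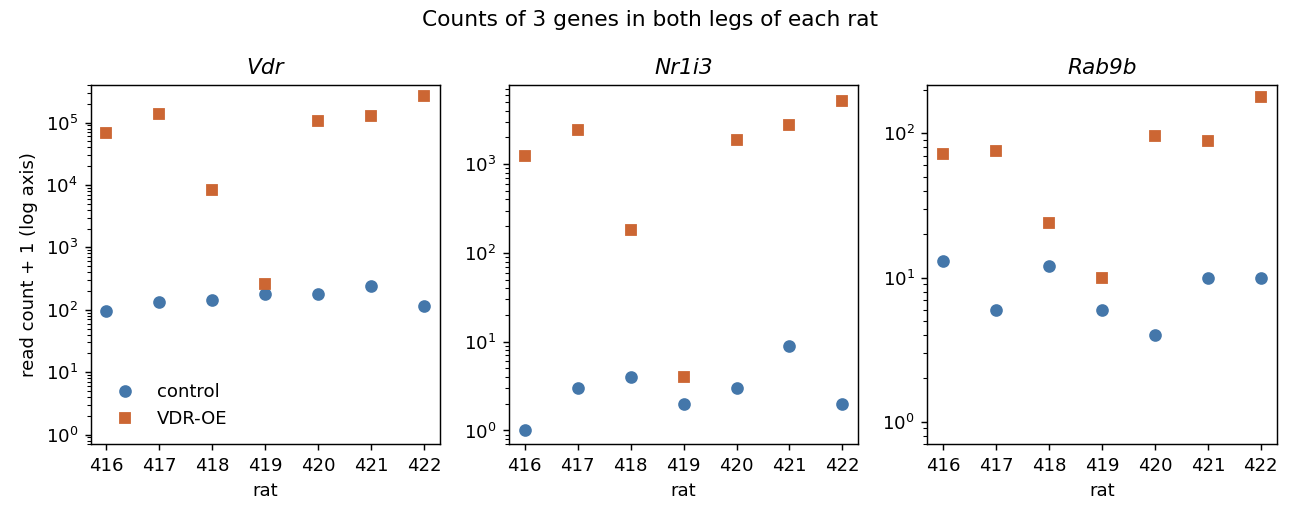
Read counts plus 1, on a log axis, of Vdr, Nr1i3 and Rab9b in the control (circles) and VDR-OE (squares) muscle of each of 7 rats. In rat 419 the VDR-OE muscle held 253 Vdr, 3 Nr1i3 and 9 Rab9b reads, and in rat 422 it held 268994, 5090 and 178.

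Over the whole transcriptome 1037 genes (7.14% of 14526) passed an adjusted p of 0.05. Of these, 593 (4.08%) were higher and 444 (3.06%) lower in VDR-OE muscle. The changes were mostly moderate: the median log2 fold change was 0.62 among genes called higher and -0.43 among genes called lower, and it was -0.003 over all tested genes. Past 1 on the log2 scale lay 84 higher and 50 lower genes, and past 2 lay 4 higher and 19 lower genes, so among tested genes the largest shifts other than Vdr were falls. Of the called genes, 773 moved the same way in all 7 rats, as 762 higher (5.25%) and 793 lower genes (5.46%) of all tested did whether called or not. No overlap between the legs, with every muscle of one side above every muscle of the other, was seen for 80 genes higher (0.551%) and 169 genes lower (1.16%) of all tested. Among genes with a symbol, 942 of 1880 were called (50.1%), 537 higher (28.6%) and 405 lower (21.5%), and their median log2 fold change was 0.48. The legs did not overlap for 68 of them on the higher (3.62%) and 160 on the lower side (8.51%). Of these 942, 13 were collagens and 23 belonged to the cell cycle or aminoacyl-tRNA synthetase lists, which left 906 (519 higher, 387 lower).

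**Figure D2:**
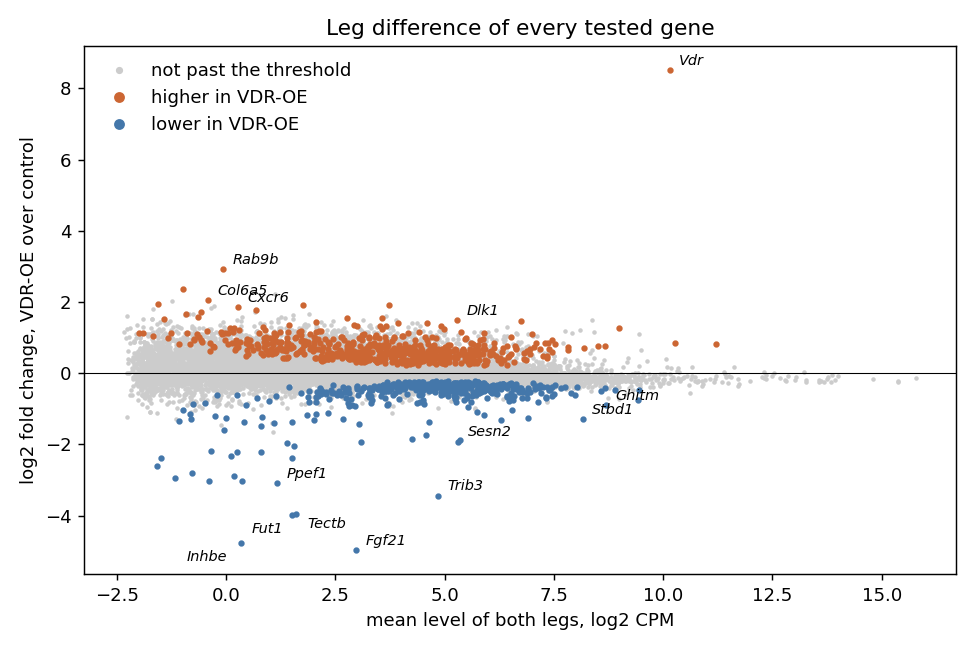
Log2 fold change of VDR-OE over control legs against mean level in log2 CPM for 14526 genes, with genes past an adjusted p of 0.05 in orange (593 higher) and blue (444 lower). Vdr lies alone at 8.52, and the largest falls reach -4.97 at Fgf21.

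The number of calls rested on which rats were in the fit (the smallest adjusted p with all 7 was 0.0065). It was 4768 without rat 416, 149 without 417, 1 without 418, 209 without 419, 4 without 420, 0 without 421 (smallest adjusted p 0.0549) and 416 without 422. At an unadjusted p of 0.05 all 7 rats gave 4566 genes, 2644 higher and 1922 lower. Scaling by library size alone shifted the median of all genes by 0.11 and left 1 gene higher and 3 lower. No change of direction was seen for any of the 96 other named genes in the settings that tested it. With a rat left out, 93 to 95 named genes, Vdr included, were compared. Inhbe could not be among them, since it passed the filter only in control muscles, which then fell short of 7. No member of any list below was called without rat 418 or without rat 421, and 1 stress response gene was called without rat 420.

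The largest falls were in Fgf21 and Inhbe, both of which encode secreted factors. Fgf21, a hormone released by stressed liver and muscle, was 4.29 to 35.0 CPM (median 12.9) in control and 0.226 to 0.560 (median 0.443) in VDR-OE muscle. Its log2 fold change was -4.97 (SE 0.40, adjusted p = 0.0065). Inhbe, the beta E subunit of activins, ran from 0.880 to 4.77 CPM (median 2.20) in control and from 0.02 to 0.166 (median 0.0838) in VDR-OE muscle, a log2 fold change of -4.76 (SE 0.41, adjusted p = 0.0065). Inhbe was under the low-count filter of 0.239 CPM in every VDR-OE muscle and entered the fit through its control muscles, so its fold change rests on few reads on that side. Neither gene overlapped between the legs, and both fell in 7 of 7 rats, with log2 ratios of -4.82 for Fgf21 and -4.57 for Inhbe in rat 419. Trib3, a pseudokinase that dampens Akt signalling, spread widely on both sides, from 16.1 to 118 CPM (median 37.3) in control and from 0.524 to 10.2 (median 5.28) in VDR-OE muscle. The sides still did not overlap, and its log2 fold change was -3.44 (SE 0.50, adjusted p = 0.0173).

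The promoters of Fgf21, Inhbe and Trib3, and of Cyp4b1 among lower genes of no list, each held a match to TGATGNAA, the core of the element that ATF4 family factors bind with C/EBP partners. They are shown upstream of the start site, from RefSeq on GRCr8 and 5′ to 3′ on the strand of the gene, with the match in capitals. In the first 3 the match lies on the opposite strand.
Fgf21 (chr1:105221472-105221559, minus strand): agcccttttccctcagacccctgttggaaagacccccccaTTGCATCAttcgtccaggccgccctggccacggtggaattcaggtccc
Inhbe (chr7:65064700-65064769, minus strand): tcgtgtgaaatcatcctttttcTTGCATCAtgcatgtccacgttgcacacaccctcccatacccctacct
Trib3 (chr3:161275534-161275594, minus strand): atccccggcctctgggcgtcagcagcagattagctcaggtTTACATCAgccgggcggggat
Cyp4b1 (chr5:134393273-134393360, minus strand): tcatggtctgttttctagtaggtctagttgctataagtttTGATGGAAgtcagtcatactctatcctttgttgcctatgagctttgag
The motif was searched on both strands in 250 bases before and 50 after each start. It was found for 19 of 307 genes called lower with a promoter in the table (6.19%), for 3 of 385 called higher (0.779%), for 12 of 654 with a symbol that were not called (1.83%) and for 1048 of all 27457 promoters (3.82%). Outside the stress response and synthetase lists, 9 of 278 lower genes held it (3.24%), and of the 19 stress response promoters searched, called or not, 4 did (21.1%). Of the 19 lower genes with a match, 3 were on the stress response list, 7 were aminoacyl-tRNA synthetases and 9 were on neither, among them Eif2s2, a subunit of translation factor eIF2, Hspa9, a mitochondrial chaperone, and Avil, an actin-binding protein. The VDR DR3 element matched 0 of these 692 called promoters and 28 of all 27457 (0.102%). The letters of TGANTCA, the AP-1 site, were in 21 of the 385 higher (5.45%), 14 of the 307 lower (4.56%) and 2012 of all promoters (7.33%). A CArG box was in 6 higher (1.56%), 5 lower (1.63%) and 451 of all promoters (1.64%). A match in this window is no evidence of binding.

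The integrated stress response list had 22 of 34 entries measured under a symbol. All of them were lower in VDR-OE muscle, 18 past the threshold and none higher, with a median log2 fold change of -1.11, beside 21.5% called lower and a median of 0.48 over all genes with a symbol. Sesn2, a leucine sensor that restrains mTORC1, was 27.2 to 115 CPM (median 58.6) in control and 10.9 to 19.7 (median 16.2) in VDR-OE muscle, with no overlap (log2 fold change -1.92, SE 0.24, adjusted p = 0.0163). Atf5, a transcription factor of the response, was 57.2 to 191 CPM (median 93.8) in control and 31.5 to 56.2 (median 44.9) in VDR-OE muscle (log2 fold change -1.32, SE 0.14, adjusted p = 0.0112). The control muscles were the more variable side for both, and every rat went down.

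Enzymes of amino acid synthesis on this list moved with the regulators. Asns, asparagine synthetase, was 11.3 to 53.6 CPM (median 25.4) in control and 4.61 to 13.7 (median 7.47) in VDR-OE muscle (log2 fold change -1.84, SE 0.30, adjusted p = 0.02). Phgdh, which begins serine synthesis, changed by -1.42 on the log2 scale (adjusted p = 0.0336), Shmt2, of folate metabolism, by -0.46 (adjusted p = 0.0291) and Pycr1, of proline synthesis, by -0.91 (adjusted p = 0.0282). Amino acid transporters also fell: Slc7a11, the cystine carrier, was 1.14 to 3.79 CPM in control and 0.0605 to 0.684 in VDR-OE muscle, and Slc7a5 and its partner Slc3a2 had log2 fold changes of -1.38 and -0.70. The stress hormone Gdf15 fell by 1.38 on the log2 scale and Cebpg, a partner of ATF4, by 0.69. Members below the threshold were Atf3 (-0.98, adjusted p = 0.066), Ddit3, which encodes CHOP (-0.47, adjusted p = 0.0977), Mthfd2 (-1.11, adjusted p = 0.0562) and Slc7a1 (-0.92, adjusted p = 0.0812). Gadd45a, a growth arrest gene, was the only one of 25 denervation and regeneration genes that had a symbol here and was tested. It was 63.6 to 226 CPM in control and 37.9 to 81.4 in VDR-OE muscle (log2 fold change -1.04, adjusted p = 0.0321).

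Members of the unfolded protein response split in direction. Of 7 measured of 21, 3 were called higher and 3 lower, with a median log2 fold change of -0.35. Over all genes with a symbol 28.6% were called higher and 21.5% lower. The remaining member, Atf6, was lower but not called (-0.37, adjusted p = 0.0787). Herpud1, which helps remove misfolded proteins from the endoplasmic reticulum, did not overlap between the legs, at 156 to 214 CPM in control and 106 to 155 in VDR-OE muscle (log2 fold change -0.55, adjusted p = 0.02), and the sensor Ern1 fell by 0.64 (adjusted p = 0.0271). The sensor kinase Eif2ak3 instead rose by 0.50 in 7 of 7 rats (adjusted p = 0.0365), and the folding factors Creld2 (0.62, adjusted p = 0.0364) and Pdia4 (0.47, adjusted p = 0.0301) rose in 6 of 7.

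Among the other large falls, most genes had no place on any list. Fut1, a fucosyltransferase, was 1.70 to 10.8 CPM (median 4.12) in control and 0.113 to 0.726 (median 0.260) in VDR-OE muscle (log2 fold change -3.99, SE 0.36, adjusted p = 0.0065). Tectb, which encodes beta-tectorin, best known from the inner ear, was 1.497 to 14.5 CPM (median 2.58) in control and 0.141 to 0.362 (median 0.300) in VDR-OE muscle (log2 fold change -3.94, SE 0.47, adjusted p = 0.0159). Neither gene overlapped between the legs. Ppef1, a calcium-binding phosphatase (-3.09), Fhad1 (-3.03), the meiotic gene Mei1 (-2.79), Sspo, which encodes SCO-spondin (-2.39), and Atp13a4, a transport ATPase (-2.33), followed, with AABR07026032.1, likewise under the filter in every VDR-OE muscle, at -3.04 and AABR07026032.3 at -2.90. Their adjusted p-values ran from 0.0159 to 0.0337, and Mei1 and Atp13a4 were the only members of this group whose legs overlapped.

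Smaller falls with little scatter had p-values as small as these. Ccdc136, a coiled-coil protein gene, was 23.5 to 33.6 CPM (median 25.6) in control and 12.4 to 20.8 (median 14.6) in VDR-OE muscle (log2 fold change -0.79, SE 0.08, adjusted p = 0.0083). Ghitm, a protein of the inner mitochondrial membrane, was 428 to 689 CPM (median 555) in control and 246 to 345 (median 271) in VDR-OE muscle (log2 fold change -0.90, SE 0.12, adjusted p = 0.0163). Ghitm and 4 further genes were chosen after their values were seen. None of them overlapped between the legs, beside 1.16% of all tested genes and 8.51% of genes with a symbol on the lower side. Since they were so chosen, this describes these genes alone. The 4 were Fgf7, a growth factor for epithelia (-1.29), Rnf185, a ubiquitin ligase of the endoplasmic reticulum (-1.18), Casp4, an inflammatory caspase (-1.72), and Cyp4b1, a cytochrome P450 (-1.87).

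Fuel genes went both ways. Stbd1, which tethers glycogen to membranes, was 250.5 to 519 CPM (median 454) in control and 129 to 198 (median 165) in VDR-OE muscle, with no overlap (log2 fold change -1.29, SE 0.16, adjusted p = 0.0163). Gbe1, the glycogen branching enzyme, was 82.5 to 137 CPM in control and 61.2 to 81.6 in VDR-OE muscle (log2 fold change -0.56, adjusted p = 0.0289). These were the 2 called of 4 glycogen genes, from a list of 36, measured under a symbol, beside 21.5% called lower over all genes with a symbol. Phka1, a subunit of phosphorylase kinase, and Gsk3b had adjusted p-values of 0.0771 and 0.0758. The acyl-CoA thioesterases Acot1 and Acot2 fell by 1.27 and 1.08 on the log2 scale (adjusted p = 0.0266 and 0.0267). They were the only 2 of 26 fatty acid oxidation genes with a symbol here, so the list as a whole is not described. Lipid and sterol synthesis had 6 of 35 genes measured. Of these, 2 were called higher and 1 lower, beside 28.6% and 21.5% of all genes with a symbol. Srebf1, its regulator, was 63.9 to 267 CPM in control and 33.5 to 179 in VDR-OE muscle (log2 fold change -1.27, adjusted p = 0.0321), with a log2 ratio of 0.04 in rat 419. Dhcr7, the last enzyme of cholesterol synthesis, and Elovl5, a fatty acid elongase, rose by 0.63 and 0.45 (adjusted p = 0.0282 and 0.0368), while Acly, Fads1 and Sqle stayed above the threshold (adjusted p = 0.0519 to 0.0612). Clock genes measured under a symbol were 4 of 20: Npas2 rose by 0.54, Clock fell by 0.28 and Nfil3 fell by 0.70 on the log2 scale, and Hlf had an adjusted p of 0.0617.

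**Figure D3:**
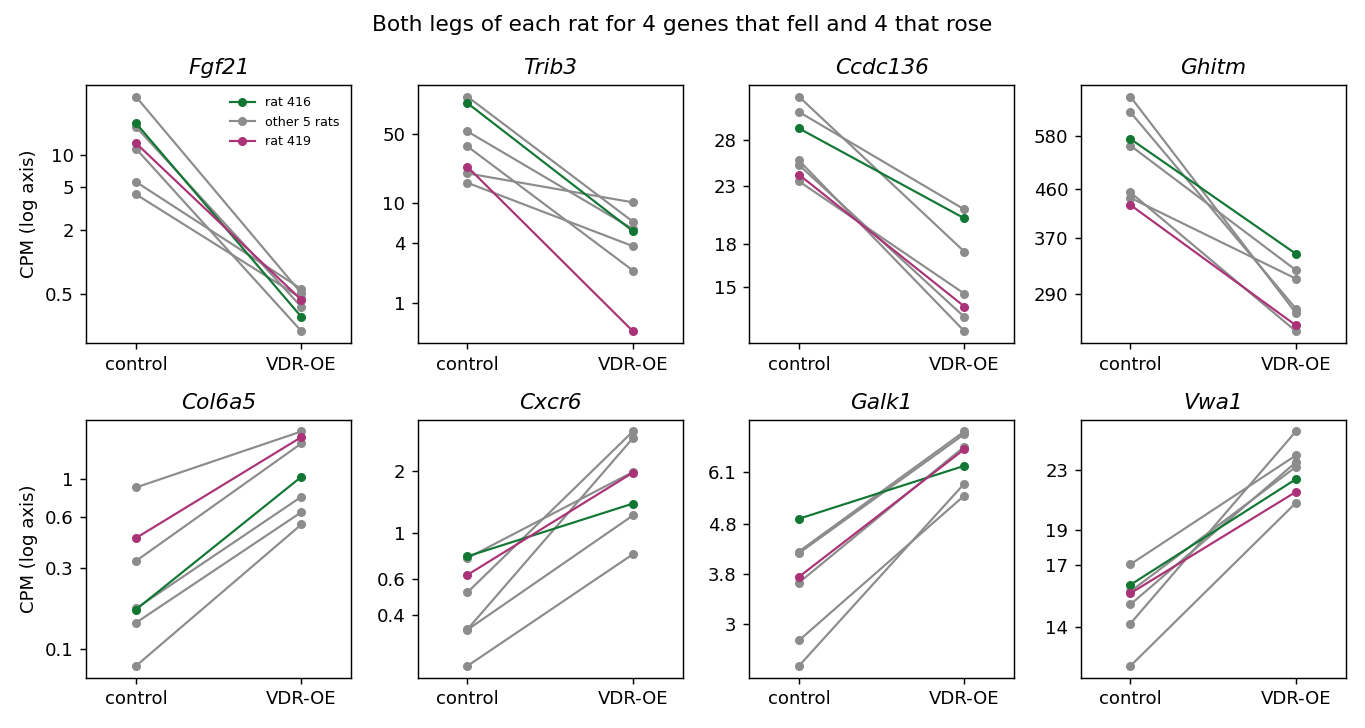
CPM on a log axis in the control and VDR-OE leg of each rat, joined by a line, for Fgf21, Trib3, Ccdc136, Ghitm (fell) and Col6a5, Cxcr6, Galk1, Vwa1 (rose), with rat 416 in green, rat 419 in purple and the other 5 rats in grey. Each line runs the same way within a panel, rats 416 and 419 included. The genes shown were picked from the called genes, of which 773 of 1037 moved one way in all 7 rats.

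Among tested genes, the rises apart from Vdr were smaller than the largest falls. The rises named here were ranked only among called genes with a symbol and at least 1 CPM on a side. After Vdr and Rab9b in that ranking, Col6a5, a chain of collagen VI, was 0.0789 to 0.894 CPM (median 0.172) in control and 0.541 to 1.92 (median 1.03) in VDR-OE muscle (log2 fold change 2.06, SE 0.22, adjusted p = 0.0128). Cxcr6, a chemokine receptor of T and natural killer cells, was 0.227 to 0.774 CPM (median 0.517) in control and 0.792 to 3.13 (median 1.98) in VDR-OE muscle, without overlap (log2 fold change 1.86, SE 0.26, adjusted p = 0.0163). Dlk1, a Notch ligand of growing muscle and preadipocytes, was 4.37 to 37.7 CPM (median 11.4) in control and 9.25 to 240 (median 36.0) in VDR-OE muscle and rose in 7 of 7 rats (log2 fold change 1.49, SE 0.21, adjusted p = 0.0163). The other large rises were in the chemokine Ccl21 (1.92), AABR07042077.1 (1.93), Arhgap36, a regulator of hedgehog signalling (1.77), the adhesion protein Igsf9b (1.73), the neuregulin receptor Erbb3 (1.56), the Wnt-binding Sfrp2 (1.55) and the chemokine Cxcl9 (1.47), with adjusted p-values from 0.0316 to 0.0456. Except for Erbb3 and Ccl21, these had a log2 ratio below 0 in rat 416 or rat 419, the lowest being -1.07 for Arhgap36 in rat 416. Ccl21 had a log2 ratio of -0.61 in rat 420, so only Erbb3 of this group rose in 7 of 7 rats.

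The rises with the smallest p-values were tighter. Vwa1, a matrix protein of basement membranes, was 12.4 to 17.1 CPM (median 15.6) in control and 20.7 to 25.9 (median 23.2) in VDR-OE muscle (log2 fold change 0.61, SE 0.07, adjusted p = 0.0148). Galk1, galactokinase, was 2.47 to 4.91 CPM (median 3.74) in control and 5.47 to 7.38 (median 6.79) in VDR-OE muscle (log2 fold change 0.84, SE 0.11, adjusted p = 0.0163). Neither overlapped between the legs. Fblim1, a filamin-binding adhesion protein (0.82), Rcn3, a collagen-folding factor of the secretory pathway (0.65), the gap junction protein Gja1 (0.81), the collagen hydroxylase P3h3 (0.66) and Fbln1, fibulin 1 (1.18), rose in 7 of 7 rats with adjusted p-values from 0.0112 to 0.0163, and their legs overlapped. Fst, follistatin, which blocks activin and myostatin, was 1.93 to 3.04 CPM (median 2.48) in control and 3.03 to 5.87 (median 4.28) in VDR-OE muscle (log2 fold change 0.79, adjusted p = 0.0183), while the proteasome subunit Psmd11 had an adjusted p of 0.0505. Snai2, a repressor of the zinc finger family, rose by 0.85 (adjusted p = 0.0212), and Pdia3, a vitamin D binding chaperone, had an adjusted p of 0.0512. This left 2 of the 3 measured genes of the vitamin D list called, Vdr and Snai2, beside 28.6% called higher over all genes with a symbol.

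Matrix glycoproteins and proteoglycans, apart from collagens, had the most called genes of any list, though the lists differed in size. Of 50 entries 30 were measured under a symbol, and all had a fitted fold change above 0, with 23 called higher and a median of 0.81, beside 28.6% called higher and a median of 0.48 over all genes with a symbol, which had themselves been selected on these muscles. Fn1, fibronectin, was 47.9 to 235 CPM (median 110) in control and 105 to 371 (median 219) in VDR-OE muscle (log2 fold change 0.93, adjusted p = 0.02). Aebp1, a collagen-binding protein, was 15.3 to 43.7 CPM (median 33.7) in control and 40.4 to 89.8 (median 61.0) in VDR-OE muscle (log2 fold change 0.95, adjusted p = 0.0163). Both rose in every rat, yet both overlapped between the legs. The 7 measured genes of the fibroblast list of 12 were all called, with a median of 0.70 beside the same 28.6% and 0.48, of which 4 also count among the matrix genes. Pdgfra, the growth factor receptor that marks muscle fibroblasts, was 12.5 to 27.5 CPM (median 18.9) in control and 26.4 to 52.9 (median 39.8) in VDR-OE muscle (log2 fold change 0.99, adjusted p = 0.022). The summed level of the 7 ran from 308 to 601 CPM in control and from 420 to 1000 in VDR-OE muscle. In whole muscle, more cells of a type and more RNA per cell cannot be told apart. Tagln, Pdgfrb and Notch3, the 3 measured of 10 smooth muscle and pericyte markers, rose by 0.50, 0.35 and 0.38.

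Immune genes were higher in most rats but met the threshold less evenly. Of 16 macrophage markers 8 were measured, all with a fold change above 0 (median 1.24), and 4 were called, against 28.6% of all genes with a symbol: Mrc1, the mannose receptor (1.43, adjusted p = 0.0282), the scavenger receptor Cd163 (1.42, adjusted p = 0.0428), Cd14 (1.33, adjusted p = 0.0364) and the growth factor receptor Csf1r (1.14, adjusted p = 0.0408). The 8 summed to 180 to 715 CPM in control and 466 to 1478 in VDR-OE muscle. The antigen presentation genes Cd74, Ciita, RT1-Da, RT1-Ba, RT1-Bb and RT1-Db1 with Irf1 and Tap2 were 8 of 32 measured, all above 0 (median 1.14) and none called. Cd74, the invariant chain, was 246 to 857 CPM (median 409) in control and 573 to 1196 (median 985) in VDR-OE muscle, with an adjusted p of 0.0559. By the likelihood ratio test 7 of these 8 passed, and without rat 416 all 8 did. T cell markers (4 of 10 measured) had adjusted p-values of 0.0868 to 0.132, and mast cell markers (3 of 7) of 0.0961 to 0.11. The single measured genes of B cells, Blnk (1.16, adjusted p = 0.0466), of satellite cells, Heyl (0.38, adjusted p = 0.0732), and of adipocytes, Cfd (0.88, adjusted p = 0.0813), were too few to describe those cells. The part of any of these cells in the matrix result was not tested.

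**Figure D4:**
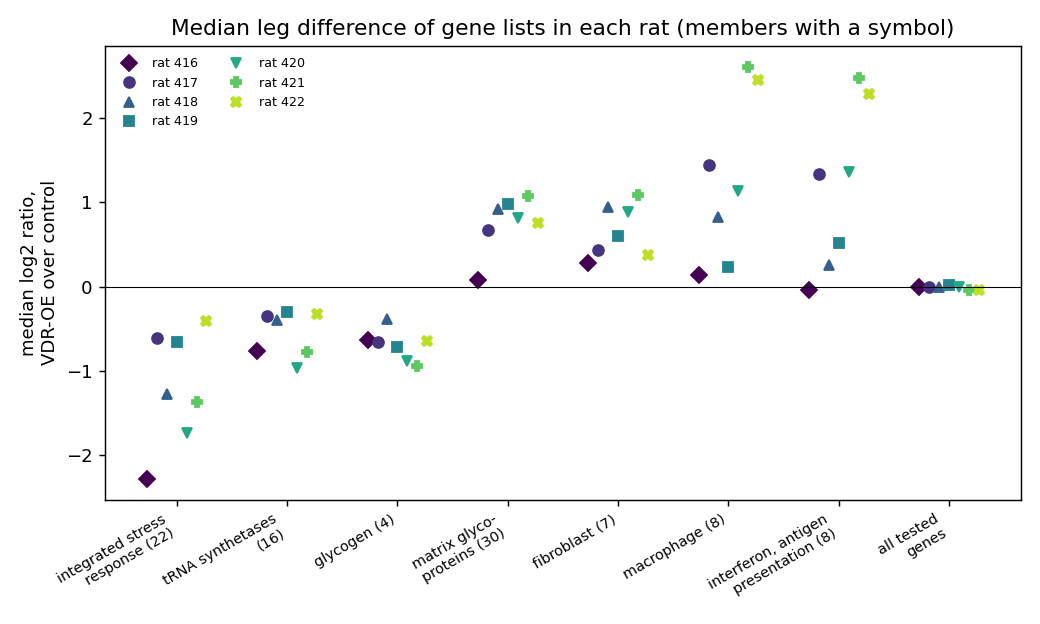
Median within-rat log2 ratio, VDR-OE over control, of the members measured under a symbol in 7 gene lists and of all tested genes, with a marker for each of 7 rats and the number of members in parentheses. Stress response medians lie below 0 in every rat, from -2.28 (416) to -0.41 (422), while macrophage medians run from 0.14 (416) to 2.61 (421).

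Rat 416 lay outside rats 417, 418, 420, 421 and 422 in each list median below, and rat 419 only in that of macrophage markers. In rat 416, whose Vdr rose to 67483 reads, the stress response fell most (median log2 ratio -2.28), but matrix genes had a median ratio of 0.08, macrophage markers of 0.14 and antigen presentation genes of -0.04. In rat 419, without a measured Vdr rise, the stress response median was -0.66 and the matrix median 0.98. In rats 417, 418, 420, 421 and 422 these ran from -1.73 to -0.41 and from 0.67 to 1.08, so rat 419 lay within both ranges. The macrophage median of rat 419 was 0.23, below the 0.83 to 2.61 of those 5 rats. Its antigen presentation median was 0.52, within their range of 0.26 to 2.48. Genes called in the other 6 rats were then read in the rat left out. For rat 419 there were 209 such genes, of which 91 of 103 higher (88.3%) and 94 of 106 lower (88.7%) went the same way, against 52.0% of all genes going up and 48.0% going down. For rat 416 there were 4768, of which 849 of 2486 higher (34.2%) and 720 of 2282 lower (31.6%) went the same way, with medians of -0.15 and 0.19. Rat 422 gave 78.4% and 86.2%, and rat 417 gave 94.0% and 95.5%. Most of the genes called without rat 416 thus moved against the other rats in it. The 593 and 444 genes called in all 7 rats include it, and 74.4% and 92.1% of them went the common way there.

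**Figure D5:**
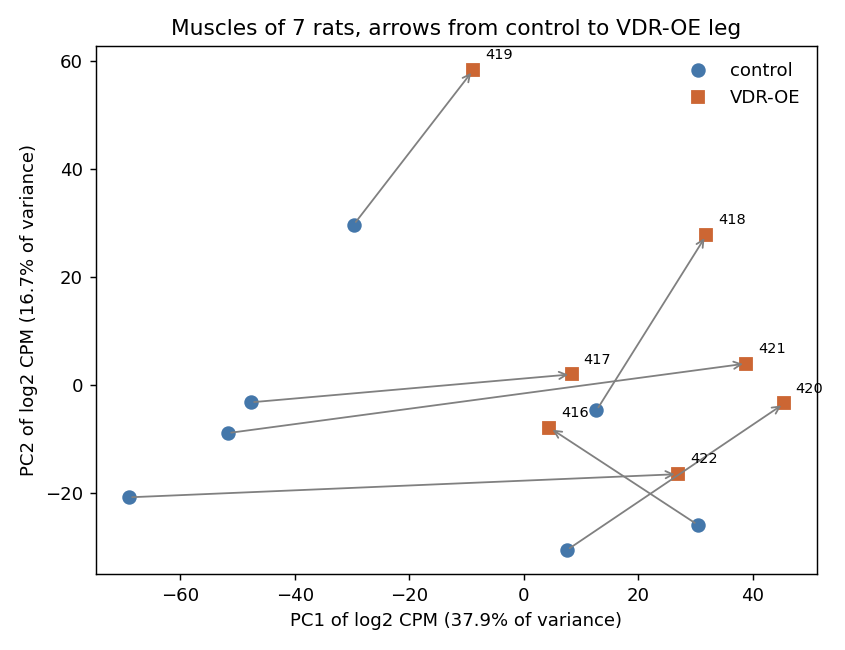
Principal components 1 (37.9% of variance) and 2 (16.7%) of log2 CPM over 14526 genes for 14 muscles, with an arrow from the control (circle) to the VDR-OE muscle (square) of each rat. Component 1 rises along 6 arrows and falls from 30.4 to 4.5 in rat 416.

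On the first principal component, 37.9% of the variance, the VDR-OE muscle scored above the control muscle in 6 of 7 rats, by 42.1 ± 42.9 on average (SD, n = 7, exact two-sided paired permutation test, p = 0.0625). Control muscles spanned -69.0 to 30.4 and VDR-OE muscles -8.8 to 45.5, so the sides overlapped. Within each side, every muscle was set against the mean of the other 6, as the root mean square deviation of log2 CPM over 14526 genes. Control muscles deviated by 0.470 to 0.664 (mean 0.534 ± 0.080, SD, n = 7) and VDR-OE muscles by 0.343 to 0.660 (mean 0.431 ± 0.106). The control leg was the farther one in 6 of 7 rats, by 0.103 on average, which did not pass the exact two-sided paired permutation test (p = 0.109). Rat 419 was the exception, with 0.660 in its VDR-OE and 0.482 in its control muscle, and without it the difference was 0.166, with all of the other 6 rats then on one side by construction. Between legs of a rat the same measure ran from 0.497 in rat 418 to 0.891 in rat 422.

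Gene by gene, the SD of log2 CPM within a side was larger in control muscle for 9357 of 14526 genes (64.4%), with a median SD of 0.270 in control and 0.230 in VDR-OE muscle. Among the 444 genes called lower the share was 63.5%, and among the 593 called higher it was 52.3%. Neither share was above that of all genes. The summed CPM of the stress response members spread from 585 to 1502 in control muscle and from 399.8 to 538 in VDR-OE muscle.

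The leg differences were last set beside those of the VDR-KD arm, in which no gene of 15112 (0%) passed by quasi-likelihood, with 1043 at an unadjusted p of 0.05. In that fit of 28 muscles 229 genes (1.52%) were called between VDR-OE and control legs. The difference between the arms was called for 0 genes (0%), with 1099 at an unadjusted p of 0.05, for 18 genes by the likelihood ratio test, and for 1 gene without rat 419. Vdr had the smallest p (difference 8.80 on the log2 scale, adjusted p = 0.218), then Fgf7 (-1.33, adjusted p = 0.218). Vdr itself was at most 8.12 CPM in scramble and 6.54 CPM in VDR-KD muscles, against a median of 2299 CPM in VDR-OE muscles on the same scale. The leg difference of Vdr in the VDR-KD arm was -0.26 on the log2 scale. All 8 measured macrophage markers were above 0 in that arm too, from 0.42 (Lyz2) to 0.70 (Aif1). Among antigen presentation genes, Cd74 was at 0.59 and Ciita at 0.79 there. None of these was called in the VDR-KD arm, so the immune rise is not shown to be particular to the construct. On a common scale of 28 muscles, Fgf21 was 4.57 to 37.3 CPM in control, 0.241 to 0.596 in VDR-OE, 0.253 to 8.46 in scramble and 0.229 to 6.79 in VDR-KD muscles. Stbd1 was 265 to 551 CPM in control, 138 to 211 in VDR-OE, 148 to 247 in scramble and 95.5 to 188 in VDR-KD muscles. For both genes the empty vector legs reached the highest levels of the 4 groups, and for Stbd1 they did not overlap with any other group. Both genes are examples. Empty vector legs also lay above every scramble leg for Cebpg (67.58 to 110.4 against 40.51 to 64.25 CPM) and Cyp4b1, and overlapped scramble legs for Asns and Atf5. Levels between rats of different arms were not tested.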

How the data were processed

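RNA-Seq libraries (TruSeq, Illumina HiSeq, 75 bp paired-end reads) were made from 28 rat tibialis anterior muscles. Adaptors were trimmed with trimmomatic, and reads were aligned and counted per gene with Rsubread. The authors deposited raw read counts for 32883 genes of rat genome 6 (Ensembl 89), without normalisation. The submitters' processing notes name bcl2fastq 2.17.1.14, FastQC 0.11.5 and edgeR 3.18.1. The labels and the study's methods name different plasmid backbones for the construct.

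Genes above 0.239 CPM (a count of 10 in the median library) in at least 7 of 14 muscles were tested with edgeR 4.0.16 in R 4.3.3, by TMM normalisation and the quasi-likelihood test with rat as a block, since both legs came from the same animal (mean r of deviations 0.248 within and -0.0419 between rats). The study's likelihood ratio test was an alternative. In a simulation of this comparison over 14526 genes, of which 200 differed by a log2 of 1, it found 89.5% of them with 15.2% of calls false, and the quasi-likelihood test 78.5% with 1.9%. Genes were drawn independently there, and no simulated rat had a leg difference of its own spanning many genes. The shares may therefore not hold for the calls reported here. DESeq2 1.42.0, other filters and scalings, a fit without the block and leaving out each rat were tried. Levels are normalised CPM, and ratios used a prior count of 0.5. No 2 muscles of a side had identical counts.

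Symbols came from the study's supplement (1998 identifiers), used for names only. The members and lists were chosen with earlier results of these data known. Named genes are Vdr, the 12 largest rises and falls and the 8 per direction with the smallest p among called genes with a symbol (at least 1 CPM on a side, the same direction in at least 6 rats), and up to 5 members per list by p. Others were named after their values were seen. Among these were Asns, Slc7a11, Gdf15, Slc3a2, Slc7a5, Ghitm, Pdgfra, Mrc1, Cd163, Cd14 and Csf1r. Further list members, such as Phgdh and Pycr1, are described beyond these rules. With 7 rats, p-values weigh the mean leg difference against how much that difference varied from rat to rat.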

Additional observations from a re-analysis of the deposited data

Results flagged for a closer look

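Across 196 sets of 7 muscles of a side, 6 had a highest or lowest muscle whose gap to its neighbour, as a share of the range, was above Dixon's critical value. Chance alone flags about 1 set in 20. All 6 were VDR-OE muscles, 4 of them of rat 419. Its deviation from the other VDR-OE muscles was 0.660, its Matn2 (a matrix protein) was 4.79, its Cxcl9 was 4.98 and its Slc7a11 was -3.79, the last 3 in log2 CPM. In rat 416 Fblim1 was lowest at 2.0 and Herpud1 highest at 7.27 log2 CPM. The Nr1i3 leg difference was 9.841 larger on the log2 scale in the VDR-OE than in the VDR-KD arm, and was picked out by the test of that difference under a looser filter added after seeing the data. In the rats given the construct Nr1i3 reached the low-count level only in VDR-OE muscles, so the value is a description.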

How the results depend on the processing

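The 1037 calls (593 higher, 444 lower) became 2262 by the likelihood ratio test (1527, 735), 2767 by DESeq2 (1685, 1082), 229 in a fit of 28 muscles (79, 150), 4 by library size alone (1, 3), and 4260 without rats 416 and 419 (2304, 1956). The last pair of settings was added after seeing the data. Leaving out each rat gave 0 to 4768 calls (0 to 2486 higher, 0 to 2282 lower). RLE scaling gave 1019, no filter 797, a filter in at least 2 muscles 1021 and the fit with no replicate block 887, of which 654 were among the 1037, so the pairing changed which genes passed more than how many. Without the block 16 of 96 named genes lost their call and 2 gained one. The Vdr difference was 8.05 to 9.15 when a rat was left out and 8.60 by library size alone (adjusted p = 0.0777). The difference in spread was 0.0731 to 0.166 when a rat was left out, and passed 0.05 only without rat 419, the only rat of the opposite sign, whose removal fixes that p at its lowest possible value. The difference between the arms was called for 18 genes by the likelihood ratio test, for 0 to 1 when a VDR-OE rat was left out, and for 1, Nr1i3, under the looser filter, which it passed through VDR-OE muscles. No named gene changed direction in any setting that tested it, and some were not tested when a rat was left out. The causes of these shifts were not tested. Adjusted calls therefore bear on single genes only together with the direction in each rat. Symbols cover 1880 of 14526 tested genes, so lists describe their measured members alone.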
